A study of Mus musculus with 16 samples.

Results

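TRAMPC1 and TRAMPC2 are prostate tumour lines labelled C57BI6 and male, and each was profiled on 1 array, so that they made up 2 of the 16 arrays of a survey of syngeneic mouse tumour lines. They were chosen by their labels. DNA from a single culture of each line, carrying the red dye Cy5, was hybridised against commercial mouse genomic DNA from Merck carrying the green dye Cy3, so a positive log2 ratio is a relative gain of the line over that DNA. The comparison lines were the other 10 arrays labelled C57BI6, which fall into 7 families by cell line, namely MC38, LL2, B16 (4 arrays, averaged), Hepa1-6, PAN02, EL4 and ID8. Lines of other strains, CT26, 4T1 and Renca (Balb/C) and P815 (DBA/2), were used as side values. With 1 array per line, no difference between TRAMPC1 and TRAMPC2 has a replicate check, and precision is limited by how few arrays there are.

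As background, TRAMP mice carry a transgene that places the T antigens of a simian virus under the probasin promoter, which is active in prostate epithelium, and they develop prostate adenocarcinoma. The T antigens bind and disable the p53 and Rb proteins, which guard the cell cycle. The TRAMP-C lines were derived from a prostate tumour of such a mouse and are grown in C57BL mice to study the immune response to prostate cancer. Array comparative genomic hybridisation reads the dose of DNA along each chromosome. A gained or lost whole chromosome shifts all of its probes, and a focal change shifts only a short run of neighbours.

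The line channel was well above background at 99.98% of autosomal probes for TRAMPC1 and 99.93% for TRAMPC2. Their noise between neighbouring probes was 0.35 and 0.41 in log2. The range over the 16 arrays was 0.22 to 0.41, with TRAMPC2 at its upper end. Both were scanned in the batch of 10 arrays, together with arrays of 5 of the 7 other C57BI6 families. The strain label was checked on 2627 probes that separated the Balb/C lines from the other C57BI6 families, chosen without the TRAMPC arrays. TRAMPC1 lay nearer the C57BI6 mean at 98.4% of them and TRAMPC2 at 97.8%, against 39.1% for P815.

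A segment is a run of probes between change points found jointly in both arrays, and a common gain or loss is a segment whose mean log2 ratio is at or past 0.3 in the same direction in both. The joint profile held 164 segments, of which 30 were common gains, covering 7.86% of the 220668 autosomal probes, and 22 were common losses, covering 7.33%. In 1 Mb bins, 417 of 2376 (17.6%) were at or past 0.3 in the same direction in both arrays. No segment was past 0.3 in opposite directions. Of the 52 common segments, 14 were absent from all 7 other C57BI6 families, meaning that no family mean reached 0.3 in that direction. These 14 comprised 11 losses, with 6.70% of probes, and 3 gains, with 0.271%. A further 18 segments were past 0.3 in all 7 other families and 20 in some of them, so these are not features that set the prostate lines apart. The absent share depended on the cut at 0.3. The share of absent gains rested on few families: it was 1.99% without MC38, 0.542% without B16 and 0.149% with mode centring, while the share of absent losses stayed at 6.70% without any 1 family.

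**Figure D1:**
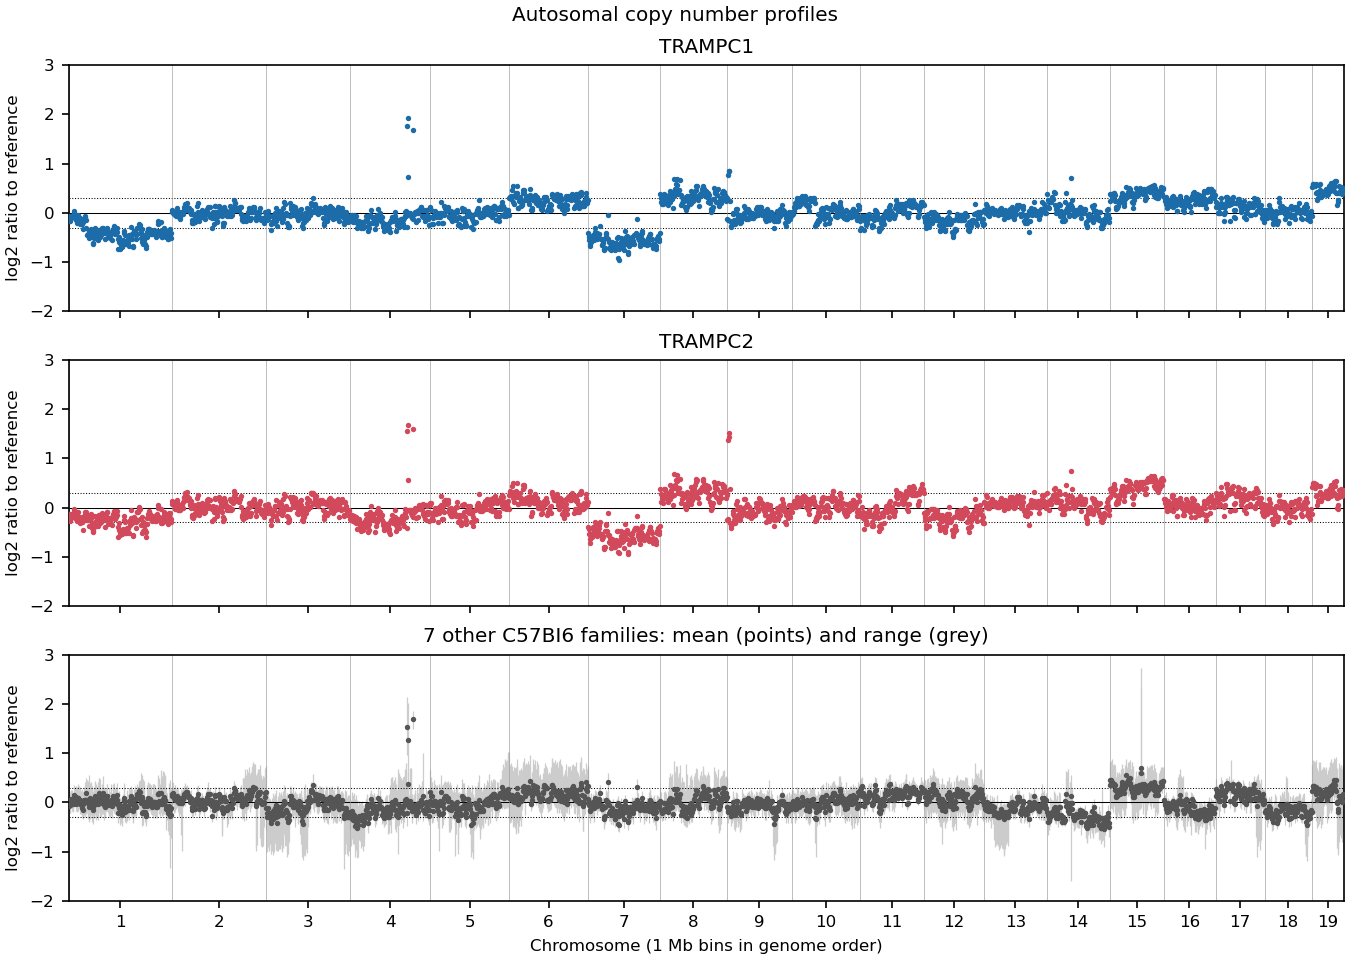
Mean log2 ratio to the reference DNA in 2376 bins of 1 Mb, in genome order over the 19 autosomes, for TRAMPC1, TRAMPC2 and the 7 other C57BI6 families (points: mean, grey lines: lowest to highest family). Dotted lines mark 0.3 and -0.3; both TRAMPC arrays lie near -0.57 along chromosome 7 and rise at the start of chromosome 9.

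The largest common loss was of chromosome 7. Segments at or below -0.3 in both arrays covered 98.7% of its 13458 probes, and it was the only autosome with at least 90% of its probes in common changes. Its median log2 ratio was -0.58 in TRAMPC1 and -0.57 in TRAMPC2. The 7 other families had medians of -0.19 in MC38, -0.24 in LL2, -0.08 in B16, -0.02 in Hepa1-6, -0.01 in PAN02, 0.01 in EL4 and -0.20 in ID8. Both TRAMPC arrays thus lay below all 7, and the arrays of other strains, from -0.33 in Renca to 0.01 in CT26, also lay above them. For scale, loss of 1 of 2 copies in every cell would give -1, and neither the ploidy nor the share of cells with the loss was measured, so no copy number was assigned.

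The loss ran along the length of chromosome 7 in both lines. The 9 segments of chromosome 7 that were absent from the other families ranged from -0.66 to -0.44 in TRAMPC1 and from -0.65 to -0.40 in TRAMPC2. Other families came near the cut in some of them, the nearest being LL2 at -0.298, ID8 at -0.284 and MC38 at -0.275 from 47827437 to 67529194. The longest, 34.8 Mb from 3049177 to 37882974 on the mouse build mm8, held 2967 probes and had a mean of -0.50 ± 0.0078 (SE) for TRAMPC1 and -0.47 ± 0.0088 for TRAMPC2. The next, 28.8 Mb from 68240234 to 97078924, stood at -0.59 ± 0.0090 and -0.61 ± 0.010. Such an SE reflects scatter among probes only, since a single culture was hybridised. Probe by probe, both arrays lay below all 7 other families at 67.7% of the probes of chromosome 7, where the share over all autosomal probes was 7.98%. This share comes from the same values by which the chromosome was picked out, so it describes the loss and is no separate support for it.

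A test of the TRAMPC mean against the other 7 families was made by limma on the 19 chromosome medians, with the single TRAMPC family assumed to vary like the others. This fit was added after the data had been seen. It called 2 of 19 chromosomes (10.5%) at an adjusted p under 0.05. Chromosome 7 was lower in TRAMPC by 0.48 ± 0.12 (difference -0.48, SE, Benjamini-Hochberg adjusted p = 0.026, limma). The adjusted p for chromosome 7 was 0.070 without B16, 0.057 without PAN02, 0.051 with Hepa1-6 and PAN02 counted as 1 family, 0.084 within the scan batch of the TRAMPC arrays and 0.44 after normexp background correction.

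Chromosome 14 was the other chromosome called, although common gains covered only 3.18% of its probes and common losses 0%. Its median was 0.01 in TRAMPC1 and 0.06 in TRAMPC2. In the 7 other families it ran from -0.31 to -0.24 with a median of -0.30, and in the 4 arrays of other strains from -0.25 to -0.19. Every one of the 11 other families therefore had a median below the reference DNA on this chromosome, while the TRAMPC medians lay near its level. The difference was 0.32 ± 0.079 (SE, adjusted p = 0.026, limma). The call was lost under the same settings as for chromosome 7, and also without LL2 (0.058), without ID8 (0.058) and with centring on the mode (0.59). Rb1, the retinoblastoma gene, is placed on chromosome 14, but its own probes were not identified.

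On 4 more chromosomes both TRAMPC medians lay outside the range of the 7 other families, without passing the test. Chromosome 1 stood at -0.40 in TRAMPC1 and -0.25 in TRAMPC2, below the others at -0.25 to 0.24, with TRAMPC2 only just outside (adjusted p = 0.46, limma). Chromosome 11 stood at 0.01 and 0.07, below the others at 0.08 to 0.28 (adjusted p = 0.50). Chromosome 13 stood at -0.02 and 0.05, above the others at -0.24 to -0.06 (adjusted p = 0.50). Chromosome 16 stood at 0.24 and 0.03, above the others at -0.34 to -0.01 (adjusted p = 0.46). On chromosome 1 the segment of 25.7 Mb from 106703566 to 132418944 was a common loss absent from the others (1764 probes). Its mean was -0.48 ± 0.0092 (SE) for TRAMPC1 and -0.32 ± 0.011 for TRAMPC2, although Hepa1-6 and PAN02 were near the cut at -0.25 and -0.27.

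**Figure D2:**
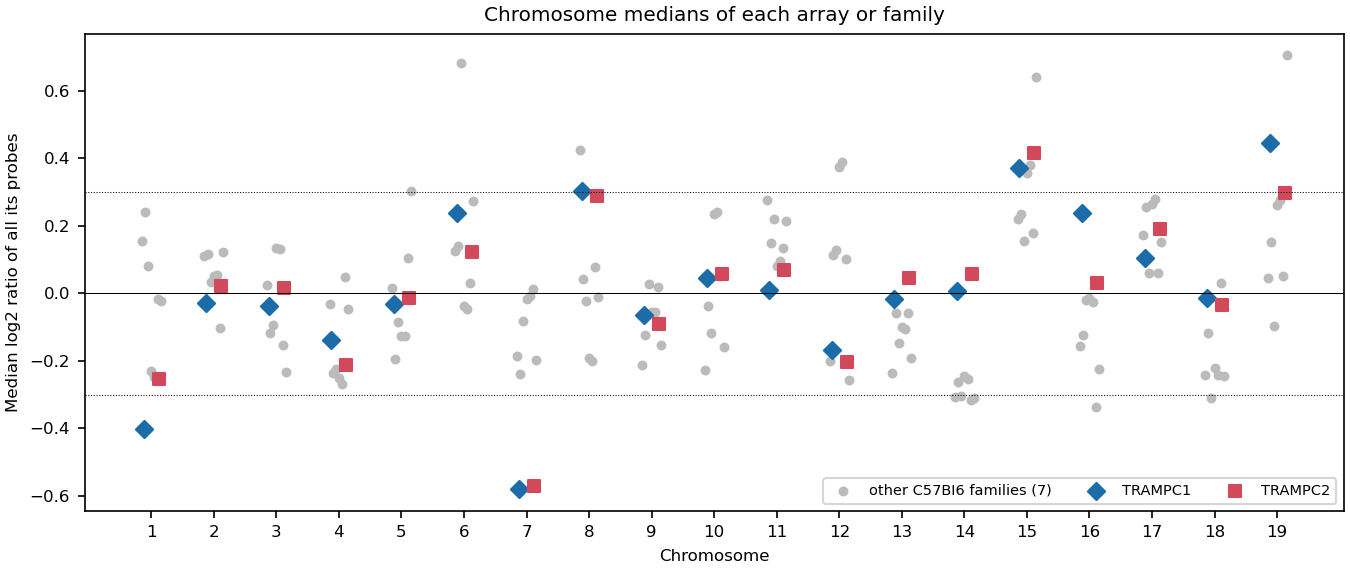
Median log2 ratio of all probes of each autosome, for TRAMPC1 (diamonds), TRAMPC2 (squares) and the 7 other C57BI6 families (grey points), with dotted lines at 0.3 and -0.3. Both TRAMPC arrays lie below all others on chromosome 7, near -0.57, and above all others on chromosome 14, near 0.

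The longest focal change that was past 0.8 in both lines and absent from the other families was a gain of 3.36 Mb at the proximal end of chromosome 9, from 4948530 to 8306675, measured by 288 probes. Its mean log2 ratio was 0.82 ± 0.020 (SE) for TRAMPC1 and 1.44 ± 0.024 for TRAMPC2, which is 1.77 and 2.71 times the reference. The other 7 families had -0.28 in MC38, -0.27 in LL2, -0.09 in B16, -0.07 in Hepa1-6, -0.10 in PAN02, -0.02 in EL4 and -0.21 in ID8. The gain was thus seen in both prostate lines, was higher in TRAMPC2, and lay above every other C57BI6 family. After normexp background correction the order of the 2 lines turned, with 0.99 in TRAMPC1 and 0.63 in TRAMPC2. That correction also lowered the SD of all 1 Mb bins from 0.275 to 0.0795 in TRAMPC2, but not in TRAMPC1 (0.283 and 0.309). Both arrays exceeded all 7 families at 285 of the 288 probes, or 99.0% (5.76% of all autosomal probes), in a window chosen as a gain absent from them.

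The gain on chromosome 9 had the same edges in both lines. When each array was segmented on its own, the first and last probes of the gain were identical in TRAMPC1 and TRAMPC2. Against the 50 probes on each side, the step was 0.99 in TRAMPC1 and 1.71 in TRAMPC2, while the step in the other 7 families ran from -0.04 to 0.07. The level was flat inside the window: over 4 consecutive blocks of 72 probes, TRAMPC1 ran from 0.77 ± 0.039 to 0.87 ± 0.046 and TRAMPC2 from 1.39 ± 0.046 to 1.49 ± 0.052 (SE). Outside the strain, 4T1 had a segment of its own over this window at 0.17, with edges elsewhere.

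Of the 2376 bins of 1 Mb tested by limma, 3 (0.126%) were called at an adjusted p under 0.05, and all 3 lay in this gain, between 5000001 and 8000000 on chromosome 9. In these bins TRAMPC1 had 0.76, 0.85 and 0.84 and TRAMPC2 had 1.37, 1.51 and 1.44, and no other family exceeded 0.002. The TRAMPC mean was higher than the mean of the 7 others by 1.29 on average, with a mean SE of 0.17, and the adjusted p ran from 0.0042 to 0.014 (limma). No bin was called lower. Counting both directions, 206 of the 2376 bins had an unadjusted p under 0.05 (limma), a cut that some bins pass without any difference. Without TRAMPC2 no bin was called (lowest adjusted p = 0.063), and after normexp background correction none was (0.058).

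As background, the proximal end of mouse chromosome 9 is where Yap1, a transcriptional co-activator of the Hippo pathway, and Birc2 and Birc3, which encode inhibitors of apoptosis, lie. In the gene table of the build GRCm38.p6 the 3 are adjacent, as entries 56 to 58 of the 2487 of the chromosome. The probe positions are on mm8 and carry no gene names, so whether these genes lie inside the gained window was not tested.

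A focal loss of 0.176 Mb on chromosome 5, from 5050378 to 5225995, was the deepest loss common to both lines and absent from the others. Over its 22 probes the mean log2 ratio was -1.21 ± 0.18 in TRAMPC1 and -1.19 ± 0.19 in TRAMPC2 (SE). The other 7 families ranged from 0.04 in Hepa1-6 to 0.51 in MC38, and Renca, of another strain, was at -0.51. The 2 prostate lines differed by less than the error of either mean. All 22 probes were below every other C57BI6 family in both arrays (7.98% of all autosomal probes), in a window chosen as a loss absent from them.

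Much of the spread inside the chromosome 5 window was shared between arrays. After the median of the 7 other families was subtracted probe by probe, the means became -1.41 ± 0.050 in TRAMPC1 and -1.39 ± 0.060 in TRAMPC2 (SE). Single probes then ran from -1.89 to -0.87 in TRAMPC1 and from -1.85 to -0.68 in TRAMPC2, so no probe of the window was at the level of the other families. After normexp background correction TRAMPC1 stayed at -1.17 while TRAMPC2 was at -0.19, no longer past -0.3. The edges were again identical when each array was segmented on its own. None of the 22 probes was called in the limma fit of single probes, and the change is too short to fill a bin.

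Another focal change was a gain of 0.814 Mb on chromosome 18, from 29622130 to 30436139, with 40 probes. It stood at 0.73 ± 0.083 in TRAMPC1 and 0.64 ± 0.091 in TRAMPC2 (SE), below the size of 0.8 set for naming, and was singled out after its values were seen. The other 7 families ranged from -0.28 to 0.00 (CT26, of another strain, was at 0.39). At 35 of 40 probes both arrays were above all 7 families (5.76% of all autosomal probes), in a window chosen as a gain absent from them. After normexp TRAMPC2 was at 0.19 and TRAMPC1 at 0.84. The gain of 1.89 Mb on chromosome 14, from 18871230 to 20758751, was the other common gain absent from the others, at 0.44 ± 0.022 and 0.40 ± 0.026 (SE over 269 probes) against a highest value of 0.23 in the other 7 families, while Renca, of another strain, was at 0.72.

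**Figure D3:**
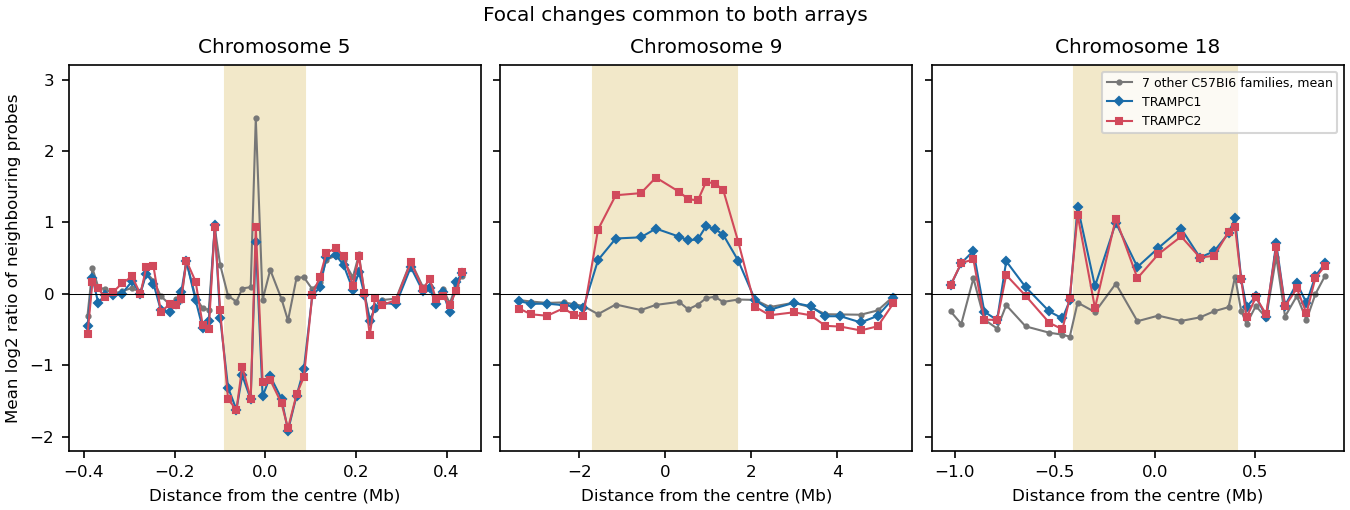
Mean log2 ratio of neighbouring probes against the distance in Mb from the centre of 3 focal changes (shaded), for TRAMPC1 (diamonds), TRAMPC2 (squares) and the mean of the 7 other C57BI6 families (grey). The loss on chromosome 5 and the gain on chromosome 18 have about the same level in both lines, while the gain on chromosome 9 is higher in TRAMPC2 (1.44) than in TRAMPC1 (0.82). Normexp background correction turned this order and also narrowed the whole TRAMPC2 profile.

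Subtracting the other families probe by probe removes probe effects that all arrays share, and the joint segmentation of the 2 arrays after this step was added after the data had been seen. It gave 159 segments. Of these, 8 were shorter than 5 Mb, lay inside a chromosome, and stepped by at least 0.3 from their flanks in both TRAMPC arrays while no other C57BI6 family did, with 5 steps up and 3 down. The windows on chromosomes 5, 9 and 18 described above were among them. On chromosome 6, 45 probes from 8850824 to 9210558 stepped up by 0.57 in TRAMPC1 and 0.59 in TRAMPC2, to 0.91 and 0.90, in a window where B16 was at 0.71, within its gain of the whole chromosome (median 0.68). On chromosome 15, 42 probes from 78848718 to 79071010 stepped down by 0.38 and 0.37, to 0.15 and 0.28, inside a chromosome that was gained in both lines. The steps of the other families there ran from -0.03 to 0.04. The remaining 3 windows were short. A loss of 5 probes on chromosome 16 stepped down by 0.72 and 0.73, and gains of 36 and 6 probes on chromosome 18 stepped up by 0.44 and 0.38 and by 0.47 and 0.53 in TRAMPC1 and TRAMPC2.

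The larger gains of the prostate lines were not theirs alone, though on chromosomes 8 and 19 few other families had them by their medians. Chromosome 15 had medians of 0.37 in TRAMPC1 and 0.42 in TRAMPC2, inside the range of the others from 0.15 to 0.64, and 75.4% of its probes were in common gains. Chromosome 19 had 0.44 and 0.30, inside the range from -0.10 to 0.70, and chromosome 8 had 0.30 and 0.29, exceeded by MC38 at 0.42. Myc, which drives cell growth, and the keratin genes Krt5, Krt8 and Krt18 are placed on chromosome 15. Jak2, a kinase of cytokine signalling, and the checkpoint ligand genes Cd274 and Pdcd1lg2 are on chromosome 19.

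The genes considered here came from 4 lists that were chosen by knowledge of the model, and each gene is known here only by its chromosome. Of the 42 genes of the prostate list, 3 lie on the lost chromosome 7, namely Hras, Ccnd1 and Ccne1, which encode a growth signalling GTPase and cyclins of the G1 phase. Chromosome 7 held 13458 of the 220668 autosomal probes, so this count is near its share of the probes. More genes of the list lie on chromosome 9 (7 genes, 11929 probes) and chromosome 6 (5 genes, 13973 probes). Another 4 lie on chromosome 11 (12498 probes), where both medians were near 0, including Trp53 and Spop. Of the 12 genes of the interferon list, 4 lie on chromosome 16 (Ifngr2, Ifnar1, Ifnar2 and Socs1), which held 8937 of the 220668 autosomal probes. The lines differed by at least 0.3 over 26.4% of the probes of chromosome 16, and whether these genes lie there was not tested. Of the 14 antigen presentation genes, 7 lie on chromosome 17 (8911 probes), where the medians of 0.11 and 0.19 were inside the range of the others. B2m lies on chromosome 2, at -0.03 and 0.02. Of the 8 checkpoint ligand genes, Pvr lies on chromosome 7. None of these values is a measurement of the gene itself.

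TRAMPC1 and TRAMPC2 were alike along most of the genome. Over the 2376 bins the correlation was 0.93 with a slope of 0.90, which is a description, since neighbouring bins are not independent and all arrays share the reference DNA. Bins of the other families correlated with TRAMPC1 at 0.19 (EL4) to 0.53 (ID8) and with TRAMPC2 at 0.23 to 0.56. Among the 6 pairs of B16 arrays the correlation ran from 0.75 to 0.90. Segments that differed by at least 0.3 covered 1.24% of probes between TRAMPC1 and TRAMPC2, against 9.96% to 23.5% between B16 arrays. The B16 arrays mix B16F0 and B16F10 stocks labelled ECAC, ATCC and NCI. B16F10 NCI was scanned in the other batch, while both TRAMPC arrays share a batch, so the comparison is not like for like. Of the 95 change points inside chromosomes in TRAMPC1, 60 (63.2%) lay within 10 probes of one in TRAMPC2, and 58 of 93 (62.4%) the other way. The share with other arrays reached 57.9% (MC38), so most of these positions are not particular to the pair. Only 8 change points were common to both and to no other C57BI6 array, and 4 of them bound the windows on chromosomes 5 and 9.

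The segmentation of the difference between the lines gave 58 segments, of which 3 were at or past 0.3. In 1 Mb bins, 27 of 2376 (1.14%) differed by that much. The longest was 31.9 Mb of chromosome 16, from 57443401 to 89324380, at 0.31 ± 0.0088 in TRAMPC1 and -0.01 ± 0.0096 in TRAMPC2, a difference of 0.33 ± 0.0033 (SE over 2356 probes). The rest of chromosome 16 was also higher in TRAMPC1, at 0.22 against 0.07 before this segment and 0.40 against 0.13 after it. Erg and Tmprss2, which are fused in many human prostate cancers, and Trp63, a marker of basal epithelium, are placed on this chromosome. The gain on chromosome 9 was the largest of the 3 differences, at -0.62 ± 0.0087 (TRAMPC1 minus TRAMPC2, SE over 288 probes). Under normexp this difference was 0.36. The third was a window on chromosome 4 from 111589916 to 113200796 with a difference of 0.32 ± 0.050 (SE over 93 probes). It is less firm: the reference channel was dim (not flagged well above background) at 44 of those probes, and under plain background subtraction the difference was 0.19, short of 0.3.

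Smaller differences ran over stretches of chromosomes 1, 11 and 19. From 36060637 to the end of chromosome 1, 161.0 Mb stood at -0.42 ± 0.0035 in TRAMPC1 and -0.23 ± 0.0039 in TRAMPC2, a difference of -0.19 ± 0.0015 (SE over 13645 probes). Before that point both arrays were closer, at -0.12 in TRAMPC1 and -0.19 in TRAMPC2, so the level fell at this edge in TRAMPC1 and moved little in TRAMPC2. Chromosome 19 beyond 10759853 was higher in TRAMPC1, at 0.46 against 0.30, and the distal 27.9 Mb of chromosome 11 were lower, at 0.16 against 0.33. The proximal 3.28 Mb of chromosome 11 were at -0.32 in TRAMPC1 and -0.11 in TRAMPC2. These small differences depended on centring: with mode centring the one on chromosome 1 was -0.11, the distal and proximal ones on chromosome 11 were -0.09 and -0.13, and the one on chromosome 19 was 0.24. Under normexp the distal difference on chromosome 11 turned to 0.10. With 1 array per line, a difference between the lines, between cultures and between hybridisations cannot be told apart.

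**Figure D4:**
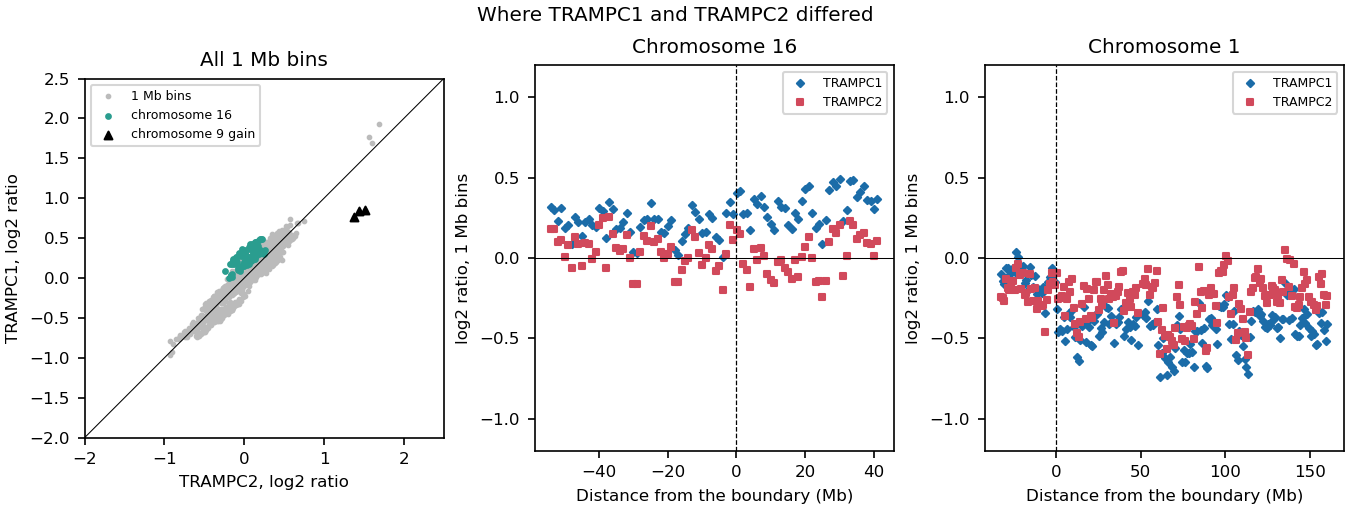
Left, log2 ratio of TRAMPC1 against TRAMPC2 in 2376 bins of 1 Mb, with the line of equality; the 3 bins of the chromosome 9 gain (triangles) lie below it and those of chromosome 16 (green) above it. Middle and right, bins of chromosomes 16 and 1 against the distance from the boundary at which the difference between the lines is largest (dashed); beyond it TRAMPC1 is at 0.31 against -0.01 on chromosome 16 and at -0.42 against -0.23 on chromosome 1.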

How the data were processed

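Per the file headers, the authors' spot intensity values came from Agilent Feature Extraction, version 10.7.3.1, with background subtraction and a linear dye scale. The deposited log10 ratio equalled the ratio of the processed intensity values within 0.001 (log2) for at least 99.9% of spots, and the deposited value table in log2 differed by at most 5.06e-05. Flags for outliers and for signal above background, deposited as 0 or 1, are other values. Probe positions are on mm8, per the file headers.

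Each array's log2(processed red over green) was centred on its autosomal median, without flagged spots. Segments came from an exact change point search (penalty 9 for 2 profiles or 6 for 1, times the squared noise and the log of the number of probes; at least 5 probes; probes limited to 3 noise SDs from the running median of 5). Focal segments were shorter than 5 Mb. Bins of 1 Mb held at least 20 probes. Tests used limma 3.58.1 in R 4.3.3 with Benjamini-Hochberg adjustment over all bins, chromosomes or probes. The rule for named regions took chromosomes with at least 90% of probes in common changes, the 10 longest common segments absent from other C57BI6 families, focal ones at or past 0.8 in both, and the 10 longest or focal differences. Of the segments that differed, only those at or past 0.3 counted.

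Members, regions and gene lists were chosen with earlier results of these data known. Gene names were placed on chromosomes through GRCm38.p6. The alternatives tried were mode centring, normexp (offset 50) and plain background subtraction on the median signals, the deposited table, thresholds, penalties, other bins, dim probes, scan batch, and leaving out families or arrays. Results for the sex chromosomes were not analysed here.

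The segmentation and the bin fit were each tested on simulated data with planted changes. Over 2376 simulated bins, the bin fit recovered 2 of 50 planted changes of 0.3, 12 of 50 of 0.5 and 43 of 50 of 1. It made 5 false calls among the bins with no planted change. In the simulation, bins that differed by 0.5 could thus go uncalled. The bins were drawn independently, with planted changes spread over the whole genome, so these counts do not give the rate for chromosome 7. Its bins are neighbours and differed by -0.47 on average (TRAMPC minus the others).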

Additional observations from a re-analysis of the deposited data

How the results depend on the processing

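Centring, penalties, shortest segment, dim probes, plain background subtraction and the deposited table kept the shares of common, absent and differing probes within 1.5 times their values. Normexp background correction gave 0.239%, 0.134% and 25.5%; it lowered the SD of the 1 Mb bins from 0.275 to 0.0795 in TRAMPC2 and not in TRAMPC1 (0.283 and 0.309), while plain subtraction gave 0.256 in TRAMPC2. It turned the difference on chromosome 9 to 0.36. A threshold of 0.2 gave 27.2%, 3.08% and 1.91%, and one of 0.5 gave 3.72%, 3.54% and 0.131%. Counting a change as absent only where no other family reached 0.2 gave 2.36%. Leaving out each other family gave absent shares of 6.97% to 8.69%.

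With TRAMPC1 and TRAMPC2 as separate samples, the limma count of 3 bins became 131 of 2376 (5.51%; 17 higher, 114 lower, of which 110 on chromosome 7). That fit treats sublines of 1 tumour as independent, which they are not, so its count is no added support for the chromosome 7 loss. The count was 0 with normexp, and 1 with bins of 2 Mb, which are longer. Bins of 0.5 Mb gave 7, all in the chromosome 9 gain. The leave-one-out counts ran from 0 (without TRAMPC2) to 3. The fit of 219960 single probes called 3, on chromosomes 3, 5 and 16. No paired analysis was possible because each line had 1 array. The correction for probe GC content was not run, since no probe sequence was used here. Changes shorter than 5 probes could not be seen, and on simulated data short changes of large size were also missed. Common changes planted over 20 probes were recovered in 0 of 10 cases at a size of 0.8 and in 10 of 10 at 1.2. Differences between the lines over 20 probes were recovered in 0 of 10 cases even at 1.2. Over 300 probes, differences of 0.3 were recovered in 0 of 10 cases and differences of 0.5 in 9 of 10. The simulation drew the noise of the 2 arrays independently, whereas the measured arrays share probe effects. In the chromosome 9 gain the SE of the difference was 0.0087, below the 0.020 of TRAMPC1 and the 0.024 of TRAMPC2. The simulated differences were thus noisier than the measured ones, and their counts give no detection limit for these data.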
